A study of Mus musculus with 24 samples.

Results

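RNA of the striatum was compared between prenatally stressed and unstressed mice that carried 1 disrupted copy of Cntnap2. The groups were chosen by their labels and held 6 of the 24 samples of the series, 3 heterozygous (het) stressed and 3 het control libraries, each from 1 mouse. All were female C57BL/6 mice heterozygous for Cntnap2. The stressed mice came from dams exposed to variable stress for 7 days from embryonic day 12.5, and the control mice from dams that were not stressed. All offspring were ear-tagged at postnatal day 12, weaned at day 18 and then housed with littermates of the same sex. Tissue was punched from frozen brains of mice killed 2 hours after lights on. The labels give neither the age at death nor the litter, so mice of a group may be siblings. The edgeR p-values rest on the spread within the groups of all 12 libraries in the fit, and cover no wider one. Of 37289 genes in the files, 15955 passed a filter on low counts and were tested. A further 6 libraries, 3 from wild-type stressed and 3 from wild-type control mice, shared the fit and gave the response to stress in the other genotype.

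Cntnap2 encodes Caspr2, a neuronal adhesion protein of the neurexin superfamily that clusters Kv1 potassium channels along axons, and its loss in people is linked to autism and epilepsy. The striatum is built mainly of GABA-releasing medium spiny neurons, which express either the D1 or the D2 dopamine receptor and receive glutamate from cortex and thalamus. Maternal stress reaches the fetus in part through glucocorticoids, which act on the glucocorticoid receptor, a transcription factor that binds DNA as a pair at 2 opposed copies of a short half-site.

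No gene passed the test. The gene with the smallest p among those with higher values in het stressed mice was Htr2a, which encodes the serotonin 2A receptor, a Gq-coupled receptor. The one among those with lower values was Slc16a8, which encodes a lactate transporter known from retinal pigment epithelium and choroid plexus. The promoters of both are printed here because these genes head the ranking in each direction. Each covers 300 bases (250 before to 50 after the start, RefSeq, GRCm38.p6), written 5′ to 3′ on the gene's strand, with a match to a glucocorticoid half-site in capitals.

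Htr2a, chr14:74640624-74640923, plus strand: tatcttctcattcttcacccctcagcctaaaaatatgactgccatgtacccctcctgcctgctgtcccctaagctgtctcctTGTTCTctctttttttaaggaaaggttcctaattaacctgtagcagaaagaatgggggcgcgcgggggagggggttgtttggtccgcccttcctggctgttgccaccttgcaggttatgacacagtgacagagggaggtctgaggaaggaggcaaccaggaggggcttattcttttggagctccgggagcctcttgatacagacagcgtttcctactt
Slc16a8, chr15:79254699-79254998, minus strand: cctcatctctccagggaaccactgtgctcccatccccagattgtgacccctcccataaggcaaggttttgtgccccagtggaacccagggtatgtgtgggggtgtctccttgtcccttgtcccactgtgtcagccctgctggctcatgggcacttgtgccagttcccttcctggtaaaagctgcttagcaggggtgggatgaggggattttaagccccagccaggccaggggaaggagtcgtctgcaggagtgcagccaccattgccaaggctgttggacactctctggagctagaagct

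The half-site AGAACA, searched on both strands, occurred in the Htr2a window as its reverse complement TGTTCT at position 83, counted from 1 at the 5′ end. It did not occur in the Slc16a8 window, nor in those of Sgcd and Gstm2, the genes next in rank. Of 32851 mouse promoter windows of the same length, 19% hold this half-site. The cAMP response element TGACGTCA (1.79% of windows) and the TATA box sequence TATAAA (13.6%) were also not found in the 4. Of the 30 genes ranked below, 19 have a promoter entry.

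The het libraries held 21410135 to 24039706 expected counts and the wild-type libraries 13587154 to 18538304, so depth was similar within the het comparison. Het control replicate 1 stood apart. Its slope of gene level on gene length was -0.336, against 0.000639 to 0.128 in the other 5 het libraries, and it lay at 73.8 on the first principal component of all 12 libraries (48.2% of variance), against -30.8 to -1.24. Among the wild-type libraries, control replicate 1 had the lowest slope, at -0.271, and lay at 58.3 on that component. The data file of het control replicate 1 carries another animal number than its label. Medians of gene lists are given with and without it where they differ in sign or by over 1.5 times. Spiny neuron markers were abundant, as with Ppp1r1b (DARPP-32), which had 2490, 2210 and 2100 CPM (counts scaled to an equal library size) in het stressed mice, against 1750, 2900 and 2750 CPM in het controls. The pseudogene Gm6736, chosen after its values were seen, had 11.0 to 17.5 CPM in all 6 het libraries and 0 to 0.223 CPM in the wild-type libraries.

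Over all genes tested, edgeR's quasi-likelihood test with Benjamini-Hochberg adjustment over 15955 genes called 0 genes at an adjusted p under 0.05 (0% of those tested), and the smallest adjusted p was 0.99995. At an unadjusted p under 0.05 there were 179 genes (1.12%), of which 93 (0.583%) had higher and 86 (0.539%) lower values in het stressed mice. The median log2 fold change over all genes was 0.003, and 50.5% of genes had a value above 0. The 3 stressed and 3 control libraries did not overlap in CPM for 1066 genes (6.68%), with the stressed mice above in 634 (3.97%) and below in 432 (2.71%). DESeq2 and limma-trend also called 0 genes. Limma-voom with sample weights, which gives less weight to libraries that vary more, called 14 genes, 11 higher and 3 lower. Of them, Htr2a, Sphkap, Ndst3, Slc16a8 and Rspo1 are among the genes ranked below. The others, Htr1a, Kcnj3, Olfm3, Fhod3, Dner, Ppm1e, Cadps, Pou3f4 and Unc5d, are not. Their limma-voom adjusted p-values were 0.0449 to 0.0462. Htr1a, Sphkap, Olfm3, Rspo1, Dner, Ppm1e, Cadps and Pou3f4 were also called in a fit, described below, that left out het control replicate 1. The part of that library in the limma-voom calls was not tested.

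**Figure D1:**
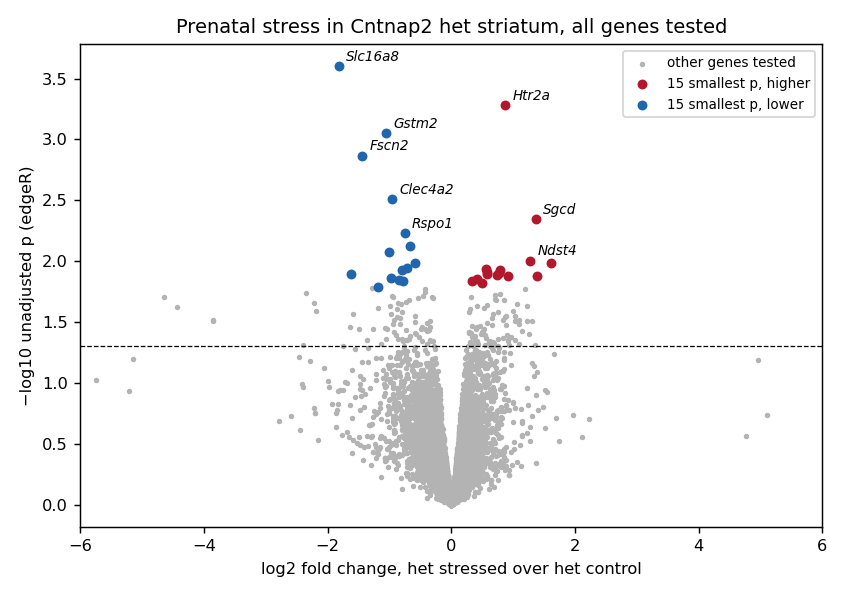
Log2 fold change of each gene tested, het stressed over het control (x axis), against the negative log10 of its unadjusted edgeR p (y axis), with the 15 top-ranked genes of each direction coloured and a dashed line at the unadjusted threshold. Slc16a8 lies highest at -1.82 and Htr2a follows at 0.87, and no gene passed after adjustment. Outside the plotted range are 4 genes.

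Ranked by p, the 15 genes with higher and the 15 with lower values in het stressed mice did not pass the test and were chosen by this contrast, so their values are a description. In 30 of the 30 the groups did not overlap. Of these, 29 kept their direction in each of 27 alternative fits, and ENSMUSG00000092198.1 did in the 20 that tested it. Those fits reuse the libraries by which the genes were chosen, so neither count is further evidence for them. Htr2a had 15.6, 15.2 and 11.8 CPM in het stressed mice, against 7.16, 8.0 and 8.14 CPM in het controls. All 3 stressed libraries lay above all 3 controls, and the controls lay close together. The log2 fold change was 0.87 ± 0.18 (SE; edgeR unadjusted p = 0.000523), or 0.81 without het control replicate 1. In TPM, scaled to library size and to gene length, the groups were also apart, at 7.92, 7.87 and 6.48 in het stressed mice and 2.41, 3.83 and 4.29 in het controls. On that scale the groups were apart for 2455 genes, 97% of them with higher values in stressed mice. Cortical neurons express this receptor more than striatal neurons do, and the mean of a cortical excitatory list was 0.41, 0.62 and 0.25 in het stressed mice, against 0.61, -0.58 and -1.08 in het controls. Control replicate 1 was within the stressed range for that list, and control replicates 2 and 3 lay below it. With the mean level of that list as a covariate, Htr2a was at 0.81. The part of cortical tissue in the Htr2a difference was not tested further.

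The heparan sulphate modifying enzymes Ndst4 and Ndst3, which add sulphate to the sugar chains that bind growth factors, were both among the 15. Ndst3 had 6.77, 7.82 and 6.97 CPM in het stressed mice, against 5.10, 2.70 and 4.85 CPM in het controls (log2 fold change 0.77 ± 0.26, SE). Ndst4 had 3.55, 8.57 and 3.69 CPM, against 3.23, 1.14 and 2.14 CPM in controls (1.28 ± 0.41), so replicate 2 of the stressed mice stood far above the others. Fgf2, a growth factor whose receptor binding needs heparan sulphate, was low throughout, with 18, 15 and 12 counts in het stressed mice and 3, 7 and 4 counts in het controls (1.62 ± 0.52). The guidance receptor gene Epha5 had 33.7, 32.4 and 35.0 CPM in het stressed mice, against 26.7, 17.3 and 24.6 CPM in het controls (0.56 ± 0.18). The stressed mice were close to each other, and the controls spread more widely. Sgcd, a sarcoglycan, had 17, 17 and 24 counts in het stressed mice and 7, 5 and 10 counts in het controls (1.37 ± 0.39).

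Apba2, an adaptor that binds the amyloid precursor protein, had 81.1, 86.3 and 90.5 CPM in het stressed mice, against 71.1, 66.6 and 66.3 CPM in het controls (0.34 ± 0.12). Sphkap, an anchoring protein of protein kinase A, had 44.7, 45.3 and 47.3 CPM, against 41.3, 23.6 and 31.9 CPM in controls (0.50 ± 0.18). The stressed values of both genes were narrow, and het control replicate 1 came within 4 CPM of them for Sphkap. The protocadherin Pcdhb7 (log2 fold change 0.41), the complement protease Masp1 (0.58), the sialyltransferase St3gal1 (0.74) and the collagen chain Col11a1 (0.78) followed. The list ended with Map3k7cl (0.91), 4930452B06Rik (0.57) and ENSMUSG00000084903.1 (1.38).

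Among the genes with lower values, Slc16a8 had 5, 8 and 7 counts in het stressed mice, against 25, 25 and 20 counts in het controls, or 0.214, 0.334 and 0.323 CPM against 1.17, 1.14 and 0.823 CPM. The log2 fold change was -1.82 ± 0.34 (SE; edgeR unadjusted p = 0.000249), and -1.74 without het control replicate 1. Choroid plexus RNA also varied between the libraries, and its part in this difference was not tested. The choroid plexus transcript Ttr had 3.73, 7.90 and 390 CPM in het stressed mice and 541, 673 and 1.65 CPM in het controls.

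Gstm2, a glutathione transferase, had 0.942, 1.0 and 0.969 CPM in het stressed mice, against 2.11, 1.83 and 2.14 CPM in het controls (log2 fold change -1.05 ± 0.23). Fscn2, an actin-bundling protein best known from retina and hair cells, had 5, 6 and 6 counts in het stressed mice and 15, 15 and 16 counts in het controls (-1.44 ± 0.34). Both genes were nearly constant within each group, at low levels. Clec4a2, a lectin receptor of myeloid cells, had 1.11, 1.0 and 1.02 CPM, against 2.53, 1.46 and 2.14 CPM in controls (-0.96 ± 0.26). Rspo1, a secreted enhancer of Wnt signalling, had 4.71, 6.06 and 5.4 CPM in het stressed mice, against 6.32, 11.5 and 9.30 CPM in het controls (-0.75 ± 0.22). For Rspo1 the groups nearly met, at 6.06 CPM in stressed replicate 2 and 6.32 CPM in control replicate 1. The homeobox gene Hhex (-0.80), the class I-like antigen gene H2-Q7 (-0.98), the 14-3-3 protein Sfn (-0.85) and the lipase Liph (-1.0) had lower values too. The remaining ones were Magix (-1.18), E230025N22Rik (-0.66), 3222401L13Rik (-0.58), Gm15895 (-0.72), Gm6851 (-0.78) and ENSMUSG00000092198.1 (-1.63). H2-Q7 has near-identical relatives among the class I genes and Gm6851 is a predicted gene, so their counts may include reads of other loci.

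**Figure D2:**
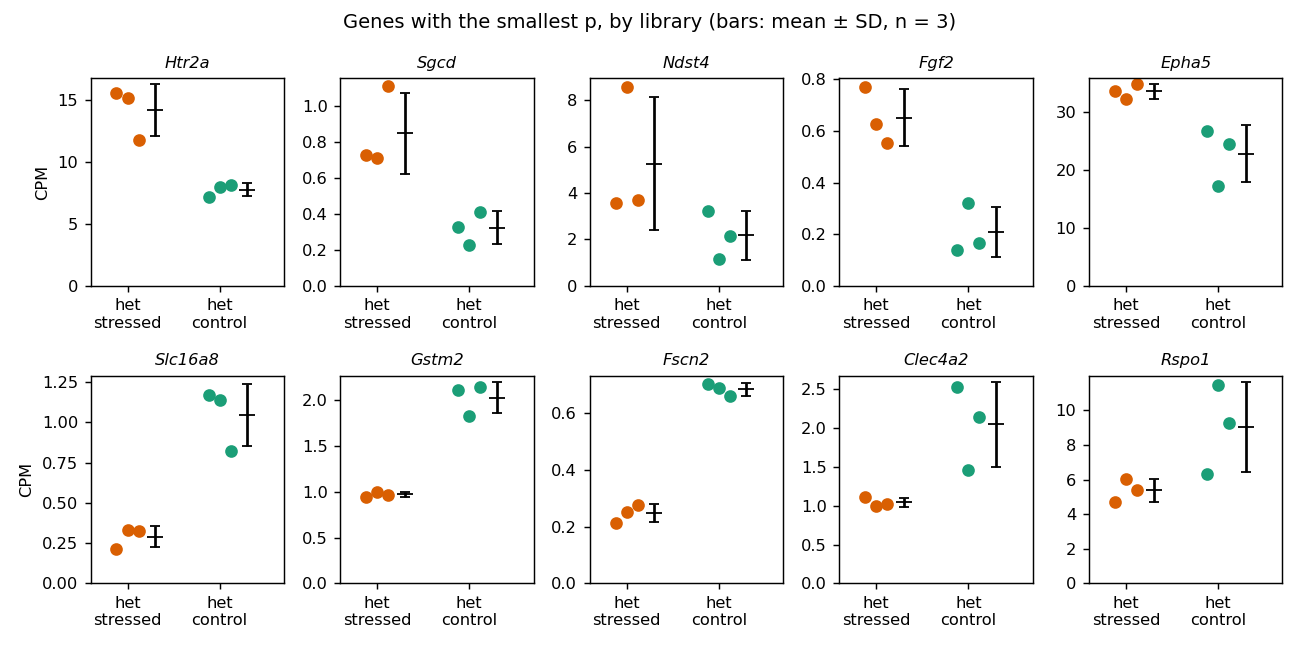
CPM by library (y axis, from 0) of the 5 genes with the smallest p among those higher (top row) and lower (bottom row) in het stressed mice. Points are single mice in the order of replicates 1 to 3, and bars give the mean ± SD. In each panel the 3 stressed mice lie on one side of the 3 controls, as for Htr2a at 11.8 to 15.6 CPM against 7.16 to 8.14 CPM.

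Wild-type mice gave a second set of values for these 30 genes. Their libraries shared the fit, and so entered the count filter, the scaling and the spread behind the ranking. They were not part of the het group means compared. Of the 15 genes with higher values in het stressed mice, 12 were also higher in wild-type stressed mice, with a median log2 fold change of 0.17. Of the 15 with lower values, 9 were lower there, with a median of -0.24. Across all genes tested, 64.5% had the same sign in both genotypes. Both control groups held a replicate 1 of low length slope, and its part in this share was not tested. The wild-type groups did not overlap, in the same direction, for Sgcd, Ndst4, St3gal1, Gstm2, 3222401L13Rik and Magix. Over all genes, wild-type groups were apart in 2.53% with the stressed mice above and in 3.14% with them below. St3gal1 had 9.33, 9.91 and 7.20 CPM in het stressed mice, against 4.87, 5.03 and 5.92 CPM in het controls. In wild-type mice it had 10.3, 9.93 and 9.80 CPM after stress, against 4.01, 8.04 and 8.47 CPM in controls. Htr2a had 13.1, 12.0 and 12.6 CPM in wild-type stressed mice and 7.96, 12.6 and 9.14 CPM in wild-type controls (log2 fold change 0.34), where replicate 2 of the controls reached the stressed range. Its difference between the responses was 0.53 ± 0.25 (SE) and did not pass (edgeR adjusted p = 0.99997).

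Cntnap2 itself was at 45.5, 49.2 and 59.4 TPM in het stressed mice, against 42.6, 36.0 and 46 TPM in het controls. The means were 51.4 ± 7.23 and 41.5 ± 5.08 TPM (SD, n = 3 each), and stressed replicate 1 lay just under control replicate 3. The difference in log2(TPM + 1) was 0.30, with a two-sided exact permutation p of 0.2, where 3 against 3 cannot go below 0.1. The median difference of all genes on that scale was 0.214. On counts the log2 fold change was 0.11 ± 0.22 (edgeR adjusted p = 0.99995). It was 0.20 when het control replicate 1 was left out and -0.01 when replicate 2 was.

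Caspr2 works with contactins and Kv1 channels, and 18 of 21 genes of this group had higher values, with a median log2 fold change of 0.16 and 0 calls. The contactin Cntn2 was at 0.13 ± 0.39 and the Kv1 channel Kcna2 at 0.33 ± 0.66. Kcna2 had 18.4, 15 and 13.1 CPM in het stressed mice, against 3.28, 16.8 and 16.9 CPM in het controls, so 1 control library set the sign. Without het control replicate 1 the group's median was 0.00. Of the Caspr family, Cntnap5c (0.73 ± 0.37) had 2.18, 2.26 and 2.59 CPM, against 1.12, 1.37 and 1.73 CPM in controls. It was the 1 of 21 members without overlap, beside 3.97% of all genes with the stressed mice above. Cntnap4 was at 0.34 ± 0.19, with overlapping groups.

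No gene of the stress system was called. The glucocorticoid receptor gene Nr3c1 had 72.4, 68.2 and 77.7 CPM in het stressed mice, against 54.8, 70.1 and 72.1 CPM in het controls (log2 fold change 0.15 ± 0.20). The mineralocorticoid receptor gene Nr3c2 was at 0.13 ± 0.18. Of 22 genes known to respond to glucocorticoids, 15 had higher and 7 lower values, with a median of 0.10, or -0.02 without het control replicate 1. Among them the receptor chaperone Fkbp5 was at 0.13 ± 0.36, the anti-inflammatory factor Tsc22d3 at 0.22 ± 0.13 and the kinase Sgk1 at 0.39 ± 0.32. Arrdc2 had 12.8, 13.2 and 13.1 CPM in het stressed mice, against 8.0, 12.5 and 9.79 CPM in het controls, the 1 of 22 members whose groups were apart with the stressed mice above, beside 3.97% of all genes, and Mt1 (-0.29) was apart with them below. The 17 tested stress axis genes had 8 higher and 9 lower values (median -0.04, or 0.15 without that library). Crh, the releasing hormone at the head of the axis, had 3.25, 2.93 and 4.25 CPM, against 4.35, 0.503 and 2.71 CPM in controls.

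Immediate early genes, which neurons switch on with activity, split into 12 higher and 14 lower (median -0.06, or -0.13 without het control replicate 1). Fos was at 0.26 ± 0.41, Arc at -0.20 ± 0.31, Egr1 at 0.00 ± 0.36 and Junb at -0.29 ± 0.18. Nr4a2 ran from 7.02 to 22.2 CPM in het stressed mice, against 1.89, 2.79 and 13.9 CPM in het controls (1.30 ± 0.93). Of 16 circadian clock genes, 11 had higher values (median 0.04, or -0.16), with Per2 at 0.04, Nr1d1 at 0.07, Arntl at 0.17 and Bhlhe40 at 0.28.

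No spiny neuron identity gene was called. Of 24 genes shared by both kinds of spiny neuron, 5 had higher and 19 lower values, with a median log2 fold change of -0.06. Without het control replicate 1, where these genes were low, the median was -0.29. The list's mean was 0.14, -0.02 and 0 in het stressed mice, against -0.60, 0.36 and 0.32 in het controls. Control replicate 1 thus lay below the stressed mice, and control replicates 2 and 3 above them. Ppp1r1b was at -0.12 ± 0.20, the G protein regulator Rgs9 at -0.05 ± 0.25 and the phosphodiesterase Pde10a at -0.02 ± 0.37. The phosphatase Ptpn5 had 941, 880 and 932 CPM in het stressed mice, against 1060, 1200 and 950 CPM in het controls, without overlap (-0.22 ± 0.19). Of the 24 members, 2 were apart with the stressed mice below, beside 2.71% of all genes. The retinoid receptor Rxrg was at -0.30 ± 0.18. In bulk tissue, fewer cells of a type and less RNA per cell cannot be told apart.

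In the direct pathway, whose neurons carry the D1 receptor, 7 of 11 genes had higher values (median 0.03, or -0.14 without het control replicate 1). Drd1 had 265, 254 and 294 CPM in het stressed mice, against 235, 322 and 288 CPM in het controls (-0.06 ± 0.15). Tac1, the precursor of substance P, had 278, 257 and 258 CPM, against 374, 367 and 287 CPM in controls (-0.37 ± 0.21). It was the 1 of 11 members apart with the stressed mice below, beside 2.71% of all genes. The dynorphin precursor Pdyn was at 0.04 ± 0.20 and the transcription factor Isl1 at -0.29 ± 0.15. In the indirect pathway, 3 of 9 genes had higher values (median -0.06, or -0.25 without that library), with the D2 receptor Drd2 at -0.06, the adenosine receptor Adora2a at -0.09 and the enkephalin precursor Penk at -0.11. Gpr6 was at -0.21 and Necab1 at 0.28. Interneuron genes had 9 of 14 higher values (median 0.06, or 0.03), with Chat at 0.16, Pvalb at 0.05, Sst at -0.32, Htr3a at 0.31 and Th at -0.19. The dopamine system had 3 of 10 higher (median -0.09), with Drd5 at 0.21.

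Serotonin receptors had 9 of 12 higher values, with a median log2 fold change of 0.24, or 0.48 without het control replicate 1. Htr2a, which heads the ranking of this same contrast, was the 1 of 12 receptors whose groups were apart. Over all genes, 3.97% were apart with the stressed mice above. Htr4, which raises cAMP, had 7.32, 4.93 and 6.6 CPM in het stressed mice, against 5.24, 3.66 and 4.11 CPM in het controls (0.53 ± 0.21, edgeR unadjusted p = 0.0244). Stressed replicate 2 lay below control replicate 1. The autoreceptor and terminal receptor gene Htr1b was at -0.10 ± 0.36 and Htr2c at 0.10 ± 0.26, with 94.3 CPM in control replicate 1, above all the other het libraries.

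Glutamate receptors had 20 of 23 higher values (median 0.18), and the median was -0.02 without het control replicate 1. Gria4, an AMPA receptor subunit, had 66.9, 65.8 and 74.2 CPM in het stressed mice, against 58, 56.8 and 51.3 CPM in het controls (0.32 ± 0.13, and 0.35 without that library). The metabotropic receptor Grm8 had 9.29, 8.53 and 12.0 CPM, against 7.91, 5.90 and 6.75 CPM in controls (0.54 ± 0.27, and 0.65). Both genes were apart between groups with the stressed mice above, the 2 of 23 members for which this held, beside 3.97% of all genes. Gria1 was at 0.25, and the NMDA receptor subunits Grin1 at 0.10 and Grin2b at 0.22. GABA signalling genes had 15 of 20 higher (median 0.13, or 0.08). The GABA-synthesizing enzyme Gad1 was at 0.12, the vesicular transporter Slc32a1 at -0.03 and Gabbr2 at 0.44. Opioid and endocannabinoid genes had 11 of 13 higher (median 0.08), with Oprm1 at 0.08, Cnr1 at 0.14, Oprk1 at 0.24 and the lipase Daglb at 0.17.

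Several other lists of synaptic and channel genes took their sign from het control replicate 1, though the synaptic adhesion list kept its sign without it. Of 15 postsynaptic scaffold genes, 11 had higher values (median 0.15, or -0.11 without it). Homer2 had 14.0, 16.6 and 15.2 CPM in het stressed mice, against 10.7, 11.6 and 9.54 CPM in het controls (0.53 ± 0.22, and 0.53 without it). Dlgap1 was at 0.45 and its groups were also apart, so 2 of 15 members were, beside 3.97% of all genes. Shank3 was at -0.13, Dlg4 at 0.16 and Homer1 at -0.05. Of 34 autism risk genes, 31 had higher values (median 0.13, or -0.11), with the chromatin remodeller Chd8 at 0.17, the sodium channel Scn2a at 0.22 and 0 members apart. Of 33 potassium channel genes, 27 had higher values (median 0.13, or -0.09). Kcnc2, a fast Kv3 channel, had 34.6, 27.3 and 25 CPM, against 16.8, 12.4 and 23.2 CPM in het controls (0.73 ± 0.39). Kcnj6 was at 0.82, Kcnj2 at 0.07 and Kcnd2 at 0.00. Synaptic adhesion genes had 11 of 14 higher (median 0.12, or 0.02), with Nlgn1 at 0.00, Lrrtm2 at 0.09 and Cbln1 at 0.48. Neurotrophin genes had 7 of 11 higher (median 0.11, or -0.07). Their receptor Gfra2 had 9.81, 11.0 and 9.65 CPM in het stressed mice, against 8.56, 4.62 and 6.09 CPM in het controls (0.66 ± 0.26). Bdnf was at 0.64, Ntrk2 at 0.13 and Ngfr at 0.75.

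**Figure D3:**
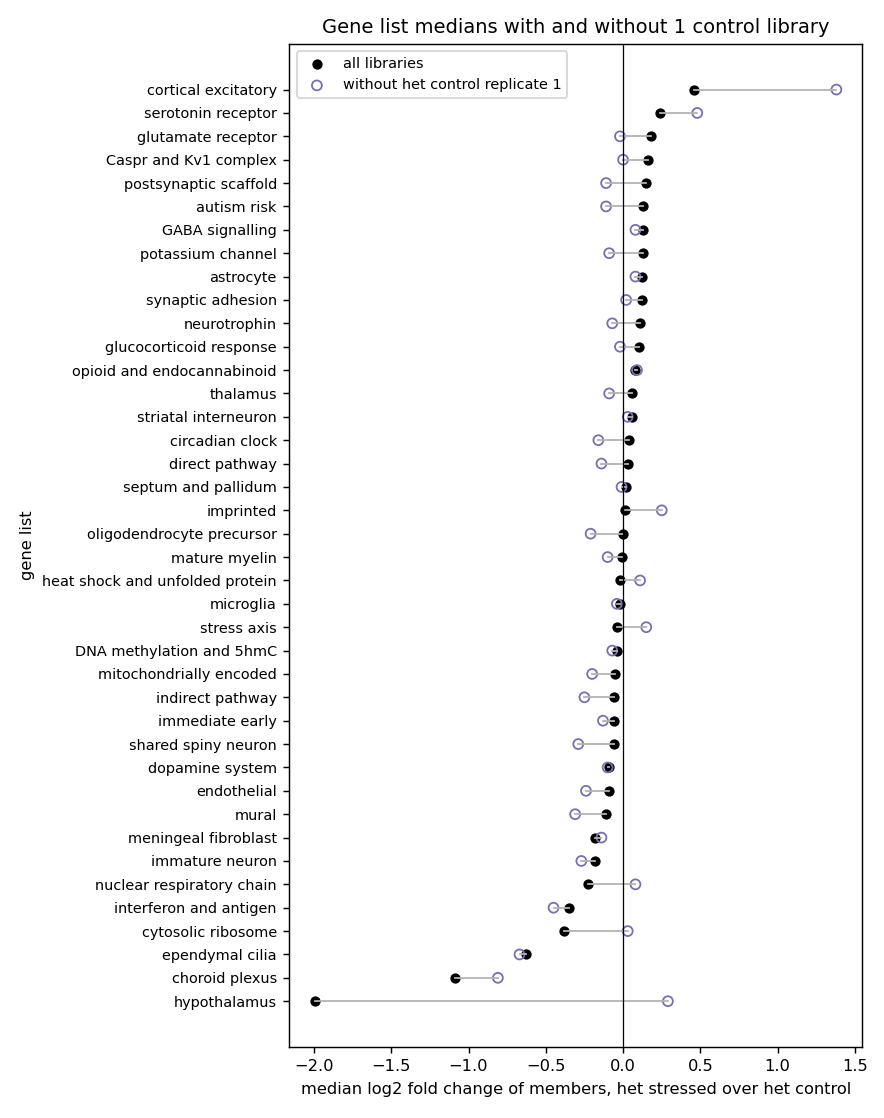
Median log2 fold change of the tested members of each gene list, het stressed over het control (x axis), with all libraries (black) and without het control replicate 1 (open). The hypothalamus list moved from -1.99 to 0.29 and the cytosolic ribosome list from -0.38 to 0.03, whereas the astrocyte list stayed at 0.12 and 0.08.

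Genes of protein synthesis and respiration had low medians with all libraries. Of 45 cytosolic ribosomal protein genes, 44 had lower values, with a median log2 fold change of -0.38. Rpl13a had 833, 1030 and 925 CPM in het stressed mice, against 2600, 987 and 729 CPM in het controls, so the single high value was het control replicate 1. Without it the median was 0.03. Rplp0 was at -0.38, Rps3 at -0.60, Rpl17 at -0.78 and Rpl37 at -0.39. Of 35 nuclear respiratory chain genes, 30 had lower values (median -0.23, or 0.08 without that library), with Ndufa1 at -0.35, Cox4i1 at -0.41, Atp5b at 0.05, Ndufs1 at 0.16 and Uqcrb at -0.22. The 13 mitochondrially encoded genes had 9 lower values (median -0.05, or -0.20), with mt-Nd1 at 0.01, mt-Co1 at -0.07, mt-Cytb at -0.03, mt-Nd3 at -0.42 and mt-Co3 at -0.11.

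Interferon and antigen presentation genes had 14 of 15 lower values, with a median of -0.35, or -0.45 when het control replicate 1 was left out and -0.18 when replicate 2 was. The class I light chain B2m had 73.1, 70.7 and 55.3 CPM in het stressed mice, against 79.7, 91.0 and 81.7 CPM in het controls (-0.34 ± 0.14, edgeR unadjusted p = 0.0311). The class I heavy chain H2-D1 had 52.3, 51.3 and 43.4 CPM, against 58.3, 73.2 and 56.5 CPM in controls (-0.35 ± 0.19). Both were apart with the stressed mice below, the 2 of 15 members for which this held, beside 2.71% of all genes. The list's mean log2 CPM relative to all 12 libraries was -0.10, -0.02 and -0.20 in het stressed mice, against -0.05, 0.54 and 0.00 in het controls, so control replicate 2 was highest. In wild-type mice 0 of 15 members had a higher value (median -0.49). There the list's mean was -0.18, -0.22 and -0.39 after stress, against 0.81, 0.02 and -0.20 in controls. Wild-type control replicate 1, the one of low length slope, was highest, and control replicate 3 lay within the stressed range.

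Chaperones of the heat shock and unfolded protein responses had 10 higher and 11 lower values (median -0.02, or 0.11 without het control replicate 1), with Hspa5 at -0.02, Hspa1b at 0.01, Dnajb1 at -0.11, Sdf2l1 at -0.44 and Hsp90aa1 at 0.16. The enzymes and readers of DNA methylation and 5-hydroxymethylcytosine had 7 of 18 higher (median -0.04, or -0.07). Tet1 was at -0.13, Dnmt3a at 0.01, Mbd1 at 0.15 and Gadd45b at -0.25. Imprinted genes had 9 of 17 higher (median 0.01, or 0.25 without het control replicate 1), with Igf2 at -0.44, Peg3 at 0.19, Cdkn1c at -0.28 and Nnat at -0.60.

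Astrocyte genes had 14 of 16 higher values, with a median log2 fold change of 0.12, which ran from 0.08 to 0.18 when each het library was left out in turn. Aqp4, the water channel of astrocyte end-feet, had 79.3, 66.8 and 68.4 CPM in het stressed mice, against 46.5, 61.4 and 61.8 CPM in het controls (0.34 ± 0.22). The gap junction protein Gja1 had 132, 130 and 141 CPM, against 105, 112 and 119 CPM in controls (0.26 ± 0.16). Fgfr3 (0.23) and Acsbg1 (0.14) were also apart, 4 of 16 members in all beside 3.97% of all genes. None of them reached an unadjusted p under 0.05 in edgeR. Gfap was at 0.30 and Aldh1l1 at 0.03. In wild-type mice 6 of 16 members had higher values (median -0.08).

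Mature myelin genes were level between the het groups, with 8 of 19 higher and a median of -0.01, or -0.10 without het control replicate 1. Mbp had 6590, 7520 and 5830 CPM in het stressed mice, against 5180, 7560 and 6370 CPM in het controls (0.06 ± 0.21). Mog was at -0.09, Ugt8a at -0.14 and Gjb1 at -0.22. In wild-type mice 0 of 19 members had a higher value, with a median of -0.52. The difference between the responses passed the test for no member. Oligodendrocyte precursor genes had 6 of 12 higher (median 0.00, or -0.21 without het control replicate 1), with Pdgfra at 0.23, Cspg4 at -0.18, Olig2 at 0.01, Neu4 at 0.17 and Nkx2-2 at -0.40.

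Microglia genes had 5 of 15 higher (median -0.02, or -0.04 without het control replicate 1), with Cx3cr1 at 0.13, P2ry12 at -0.02, Csf1r at 0.05, P2ry13 at 0.16 and the complement gene C1qb at -0.28. Endothelial genes had 3 of 13 higher (median -0.09, or -0.24), with Cldn5 at -0.17, Pecam1 at -0.04, Flt1 at -0.14, Ly6c1 at -0.21 and Esam at -0.18. Of 12 mural cell genes, 12 were counted lower, with Rgs5 at 0.00 to 2 decimals and a median of -0.11, or -0.31. Without het control replicate 3, where these genes were highest, the median was 0.05. Pdgfrb was at -0.01, Acta2 at -0.29, Kcnj8 at -0.30 and Tagln at -0.36. Meningeal fibroblast genes had 12 of 14 lower (median -0.18), with Col1a1 at -0.01, Dcn at -0.15, Slc6a13 at -0.20 and Col3a1 at -0.33. Immature neuron genes had 15 of 19 lower (median -0.18, or -0.27), although Dcx (0.21), Sox11 (0.42) and Dlx2 (0.05) had higher values, and Cd24a, also found in ependymal cells, was at -0.71. In wild-type mice 16 of the 19 had higher values (median 0.42).

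Markers of tissue beside the striatum differed between single libraries more than between the groups, and apart from a cortical covariate their part in the results was not tested. With the mean of the cortical list as a covariate 0 genes were called, and 2875 had an unadjusted edgeR p under 0.05. Choroid plexus genes had 15 of 15 lower values, with a median of -1.09 and 0 members apart between groups. Their mean log2 CPM relative to all libraries was -1.54, -1.59 and 1.45 in het stressed mice, against 1.53, 1.79 and -1.35 in het controls. They were thus high in 1 stressed and 2 control libraries and low in the other 3. Folr1 was at -1.35, Kcnj13 at -1.20, Enpp2 at -0.38 and Sostdc1 at -1.01. The list's median was -2.99 without het stressed replicate 3 and -0.27 without het control replicate 2.

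Ependymal cilia genes had 12 of 13 lower values (median -0.63). Their mean was -1.29, -1.14 and 0.47 in het stressed mice, against 0.42, 0.15 and 0.07 in het controls, so stressed replicates 1 and 2 were low. Without stressed replicate 3 the median was -1.61, and without stressed replicate 2 it was -0.31. Foxj1, the master factor of motile cilia, had 7.79, 7.40 and 12.0 CPM, against 13.2, 12.3 and 11.5 CPM in controls (-0.44 ± 0.34). Hydin was at -0.50, Rsph1 at -0.33, Dynlrb2 at -1.08 and Spag16 at -1.10.

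Cortical excitatory neuron genes had 11 of 12 higher values, with a median of 0.46, or 1.38 without het control replicate 1. Slc17a7, the vesicular glutamate transporter of cortical neurons, had 188, 257 and 174 CPM in het stressed mice, against 206, 57.0 and 17.8 CPM in het controls (1.14 ± 0.98). Control replicates 2 and 3 were low, and control replicate 1 was within the stressed range. Tbr1 was at 1.15 and Rasgrf2 at 0.44. The list mean was 0.41, 0.62 and 0.25 in het stressed mice, against 0.61, -0.58 and -1.08 in het controls. A fit that adjusted for the length slope and dropped the 2 libraries of lowest slope, chosen after the data were seen, called 38 genes, 33 higher and 5 lower. Those with higher values included the cortical genes Slc17a7 (2.35), Tbr1 (1.80), Neurod2 (1.65), Neurod6 (2.33), Slc30a3 (2.24) and Bdnf (2.15). In that fit 3 stressed mice faced the 2 controls with low cortical values.

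Hypothalamic genes had 8 of 8 tested members lower, with a median of -1.99. Pmch, a peptide of lateral hypothalamic neurons, had 1.03, 0.293 and 0.600 CPM in het stressed mice, against 41.2, 0.411 and 0.329 CPM in het controls (edgeR unadjusted p = 0.0239). Oxt had 0, 0 and 0.462 CPM, against 10.1, 0 and 1.52 CPM in controls, and Pomc had 2.40, 2.97 and 1.98 CPM, against 16.2, 3.15 and 2.88 CPM. Het control replicate 1 held the high value of each, and Hcrt was at 1.31 CPM there and at most 0.167 CPM in the other het libraries. Without it the list's median was 0.29. Thalamus genes had 7 of 11 higher (median 0.06, or -0.09), with Prkcd at 0.16, Slc17a6 at 0.54, Tcf7l2 at -0.10 and Amotl1 at 0.25. Septum and pallidum genes had 5 of 9 higher (median 0.02, or -0.01), with Zic1 at -0.05, Nkx2-1 at 0.16, Zic4 at -0.32 and Onecut2 at -0.53.

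**Figure D4:**
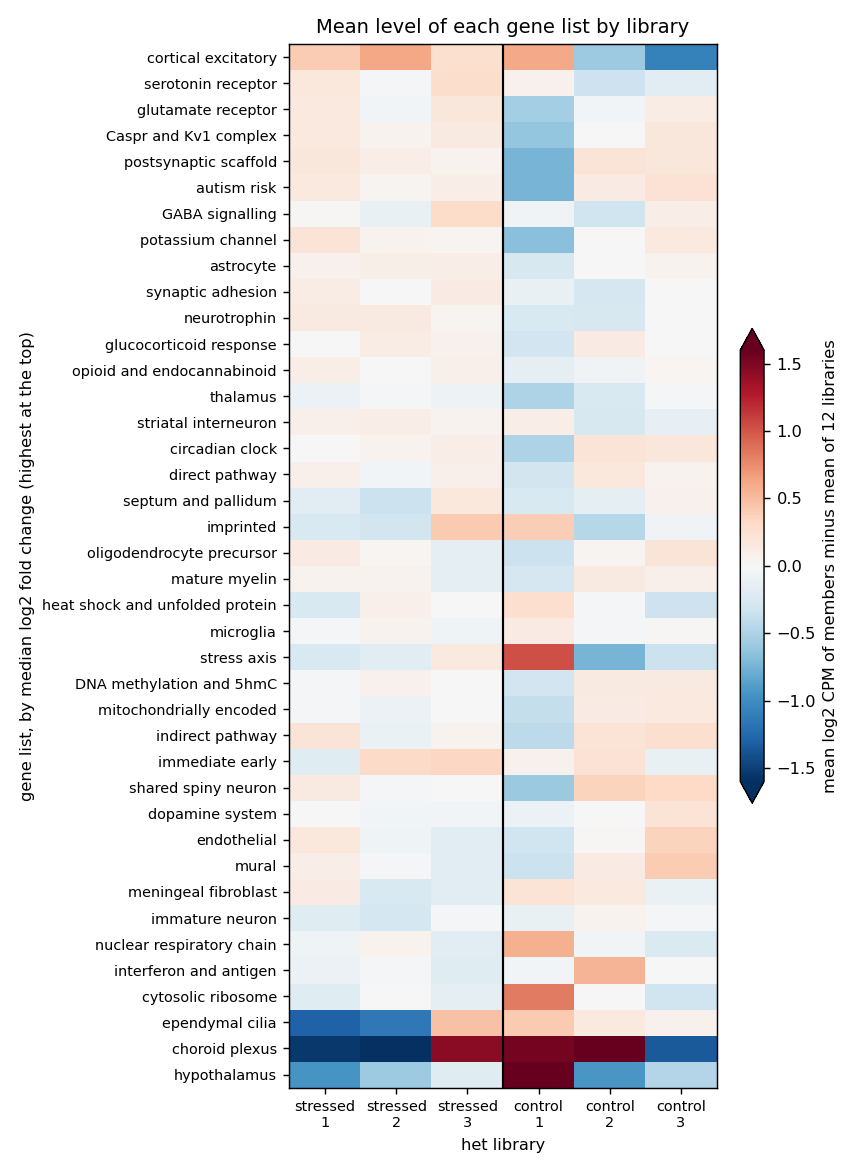
Mean log2 CPM of the tested members of each gene list (rows) in each het library (columns), relative to the mean of all 12 libraries, with stressed mice left of the line and controls right. Rows run from the highest to the lowest median log2 fold change. Het control replicate 1 is high for ribosomal (0.83) and hypothalamic genes (2.77, beyond the colour scale), and choroid plexus genes are high in stressed replicate 3 (1.45) and control replicates 1 and 2 (1.53 and 1.79).

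The series asks whether stress acts differently by genotype, and the difference between the response in het mice and that in wild-type mice was tested directly. edgeR's quasi-likelihood test called 0 genes (0%), with 212 genes (1.33%) at an unadjusted p under 0.05, of which 137 (0.859%) had a more positive and 75 (0.470%) a more negative response in het mice, and DESeq2, limma-trend and limma-voom also called 0. Across all 15955 genes, the 2 responses had a Pearson r of 0.178 and a Spearman rho of 0.33. These are given as a description, since genes are not independent replicates. The responses share no library, but replicate 1 of both control groups had a low length slope (-0.336 in het and -0.271 in wild-type mice). The part of these libraries in the correlation was not tested.

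The genes with the smallest p for this difference did not pass. Fam129c had 2.14, 1.96 and 1.85 CPM in het stressed mice, against 2.62, 2.29 and 3.13 CPM in het controls. In wild-type mice it had 3.07, 3.47 and 3.38 CPM after stress, against 1.81, 2.12 and 1.92 CPM in controls. The groups were apart in opposite directions, and the difference was -1.19 ± 0.26 (SE). Spp1, the secreted phosphoprotein osteopontin, had 26.8, 16.1 and 16.2 CPM in het stressed mice, against 10, 13.1 and 14.9 CPM in het controls. In wild-type mice it had 12.8, 18.1 and 7.11 CPM after stress, against 26.5, 25.7 and 53.4 CPM in controls (difference 2.11 ± 0.54). Xrra1 was again apart in opposite directions, with a difference of -1.26 ± 0.38.

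For the vesicle GTPase Rab37 the het groups overlapped, with 9.81, 9.20 and 6.6 CPM after stress against 6.18, 8.96 and 7.98 CPM in controls. Its wild-type groups did not, with 6.35, 7.98 and 3.90 CPM after stress against 18.7, 13.2 and 25.6 CPM in controls (difference 1.80 ± 0.43). The transcription factor Shox2, which marks thalamus among other regions, was at 0.165 to 0.711 CPM in all het libraries and at 1.54, 1.40 and 7.00 CPM in wild-type controls. Gm7488 (1.49) and Abcg3 (1.51) had a more positive response in het mice, and Gm11175 (-0.94) and Fscn2 (-1.58) a more negative one. Oaz1-ps held 15 counts in het control replicate 3 and 0 in the other het libraries.

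**Figure D5:**
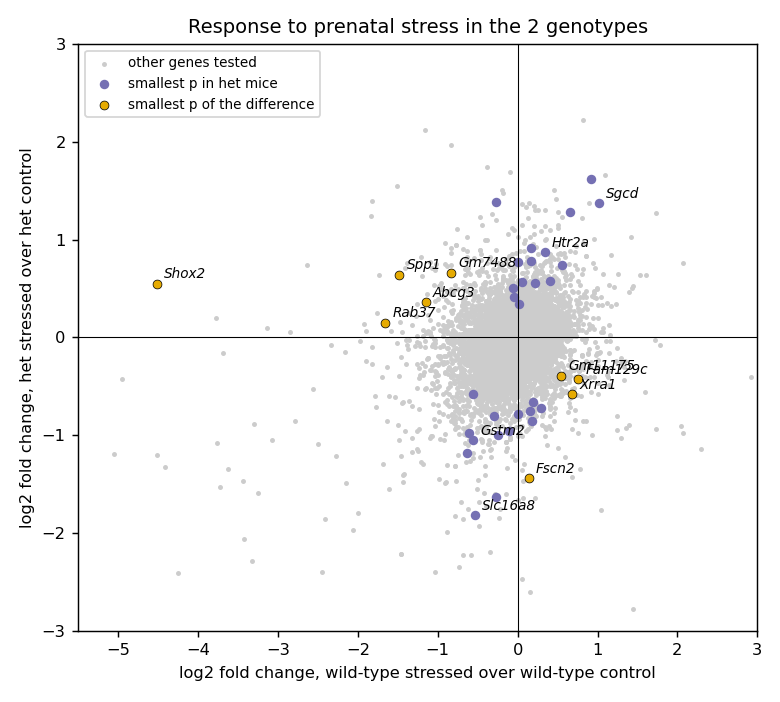
Log2 fold change of each gene after prenatal stress in het mice (y axis) against that in wild-type mice (x axis), with the genes of smallest p in het mice and those of smallest p for the difference between the responses coloured. Sgcd (1.37 and 1.02) lies in the same direction in both genotypes, and Spp1 (0.64 and -1.48) and Fam129c (-0.43 and 0.76) in opposite directions. Outside the plotted range are 33 genes, Oaz1-ps among them.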

How the data were processed

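Per the labels' protocols, about 30 mg of striatum was micropunched per mouse, and about 100 ng of RNA went into NuGen libraries primed at random. The submitters' processing notes name RSEM, Bowtie and the builds mm9 and NCBIM37, with no version of either tool for RNA. For each gene the deposited files give RSEM's expected count and its TPM, per the file headers, with 1 file per library. Transcript files and the 5-hydroxymethylcytosine tables were not used here, and 0 columns of other series were present.

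Expected counts were rounded. After filterByExpr and TMM scaling, edgeR 4.0.16 in R 4.3.3 (glmQLFit, robust, and glmQLFTest) was run over all 12 RNA libraries with 4 group means. Tests were two-sided, and p-values were adjusted by Benjamini-Hochberg over 15955 genes and called at 0.05. The biological coefficient of variation was 0.256. DESeq2 1.42.0 and limma 3.58.1 (voom, trend, and log2(TPM + 1) or log2(TPM + 0.1)) were alternatives, as were other scalings, no filter, het libraries only, covariates and leaving out each library. The edgeR fit for stress in het mice was also run on simulated counts, which held no library that stood apart. Its outcome is not reported here, and the other fits were not run on them. Log2 CPM for list means used a prior count of 2.

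The groups, the 40 gene lists and the tests were chosen with earlier results of these data known. Lists are described by counts and medians beside all genes, with no test, and share some genes. Named are Cntnap2, the 15 genes of smallest p in each direction, the first 3 and the 2 smallest-p members of each list, and 5 genes in each direction for the difference between genotypes; others named were chosen after their values were seen. Identifiers stand for the 664 tested genes that lack a symbol. List members that matched no symbol were not analysed here, and some members that the rule names are not reported here. Counts of replicate libraries differed beyond sampling noise, so all were kept as separate samples. Strand use is not stated, so overlapping and antisense genes cannot be told apart.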

Additional observations from a re-analysis of the deposited data

Results flagged for a closer look

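For 3 of the 10 genes named for the smallest p of the difference, every het stressed mouse lay on one side of every het control and every wild-type stressed mouse on the other side of every wild-type control. Over all genes tested this held for 25 (0.157%). The 10 genes were chosen by the p of this same difference, which favours such a pattern, so the 2 counts cannot be compared. The difference in log2 fold change, het minus wild-type response, was 2.11 for Spp1, -1.19 for Fam129c and -1.26 for Xrra1. The edgeR interaction test passed for none of them (adjusted p = 0.99997 each), with unadjusted edgeR p-values of 0.00252, 0.000749 and 0.00712.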

How the results depend on the processing

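The count of 0 called genes for stress in het mice held in all but 2 of the alternatives run. It was 14 with limma-voom and sample weights. It was 38 in the fit that adjusted for the length slope and left out the 2 libraries of lowest slope, a choice made after seeing the data. For the difference between genotypes that last fit called 71 genes, 45 higher and 26 lower, and the others called 0 (the fit on het libraries alone cannot give it). Leaving out 1 library at a time gave 0 to 0 calls for both. The 179 genes at an unadjusted p under 0.05 became 400 without het control replicate 1, 737 with the length slope as covariate, 1944 when the low-slope pair was also left out, 1974 with limma-voom and sample weights, and 2875 with the cortical list as covariate. The number of genes whose het groups did not overlap was 2455 on TPM, of which 97% had higher values in stressed mice, and the median difference of all genes was 0.214 in log2(TPM + 1). On RLE size factors it was 1028, with 53.3% higher, against 634 of 1066 in CPM. Cntnap2 turned to -0.01 without het control replicate 2, in a range of -0.01 to 0.20 when 1 library was left out.

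With the replicate number as a block, 0 genes were called (294 at an unadjusted p under 0.05). Same-numbered stressed and control libraries did not deviate together (correlations of -0.256, -0.0377 and -0.09), so the numbers were not taken to pair mice. Of 40 list medians, 14 kept their sign in all 6 fits that left out 1 het library. Depth limits Slc16a8, Fscn2, Sgcd and Fgf2, which rest on 3 to 25 counts per library. It also limits other ranked genes, among them ENSMUSG00000092198.1 (2 to 14 counts per het library), Map3k7cl (6 to 18), ENSMUSG00000084903.1 (5 to 25) and Magix (6 to 38).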

Other observations

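Xist, expressed from the inactive X chromosome in females, had 351, 310 and 291 CPM in het stressed mice, against 133, 453 and 513 CPM in het controls, the lowest again in het control replicate 1. Wild-type stressed replicate 2 held 2.71 CPM, against 127 to 527 CPM in the other wild-type libraries. With that library and het control replicate 1 left out, a choice made after seeing the data, 0 genes were called for stress in het mice and 354 had an unadjusted edgeR p under 0.05.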
